A study of Mus musculus with 3 samples.

Results

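Barcodes with marker genes of Kupffer cells, the macrophages that live in the sinusoids of the liver, made up 52 of the 36990 barcodes in 3 mouse liver single-cell RNA-seq libraries. They were chosen on measured values. A member had at most 30% mitochondrial UMIs (unique molecular identifiers, each counting 1 captured transcript), at least 2 UMIs summed over 5 identity genes (Clec4f, Vsig4, Cd5l, Timd4 and Marco), at least 4 UMIs summed over the complement genes C1qa, C1qb and C1qc, and 0 UMIs of the T cell gene Cd3e, the B cell gene Cd79a and the patrolling monocyte gene Treml4. By this rule the control library held 18 members, the high-fat diet (HFD) library 25 and the carbon tetrachloride (CCl4) library 9.

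All mice were wild-type C57BL/6 males, 8 weeks old at the start, and each library pooled the cells of 2 mice. Control mice were left untreated, HFD mice were fed for 4 months on chow in which fat gave 60% of the calories, as a model of steatohepatitis, and CCl4 mice ate chow for 3 months and then received 0.1 mL of 10% CCl4 into the peritoneal cavity, 2 injections per week for 4 weeks, as a model of fibrosis. Hepatocytes and nonparenchymal cells from collagenase perfusion were counted and mixed in equal numbers before capture on the 10x Genomics Chromium platform, so a share of barcodes is a share of that mixture and not of the liver. With 1 library per condition there was no replicate and no test across animals; intervals below are 95% and cover counting error only, and a difference between libraries may be one between pools of mice, isolations or conditions, which cannot be told apart.

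Kupffer cells seed the liver before birth and renew themselves there. They sit against the sinusoidal endothelium, take up bacteria, complement-coated particles and dying red blood cells from portal blood through receptors such as CLEC4F, VSIG4 (a complement receptor), TIMD4 (a receptor for the phosphatidylserine of dying cells) and MARCO (a scavenger receptor), and return the iron of red cells through ferroportin, encoded by Slc40a1. CD5L is a secreted protein of tissue macrophages, made by Kupffer cells and by macrophages elsewhere. When Kupffer cells are lost, blood monocytes can enter and take on part of this program, and TIMD4 is known to appear late in such cells.

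Members were 0.161% of the 11207 control barcodes within the mitochondrial limit (interval 0.0952 to 0.254%), 0.193% of 12983 HFD barcodes (interval 0.125 to 0.284%) and 0.0705% of 12761 CCl4 barcodes (0.0323 to 0.134%). The CCl4 share was the lowest, and each pair of intervals overlapped. With Treml4 UMIs allowed, the shares were 0.259% in the control and 0.246% with HFD, so the order of these 2 libraries turned. Depth differed: members had a median of 4675 UMIs in the control (1660 to 11997), 2524 with HFD (1831 to 7475) and 2810 with CCl4 (2564 to 6132), and 92745, 73193 and 29894 UMIs in all. A gene with 3 UMIs over all members therefore stood at 32.3, 41.0 and 100 CPM (UMIs scaled to the members' total in their library), and the CCl4 values are the least precise. The libraries shared 36 (control and HFD), 49 (control and CCl4) and 52 (HFD and CCl4) barcode sequences, none of them a member's.

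The genes of the rule were met in different ways in the 3 libraries. Clec4f or Vsig4, the more specific of the identity genes, had a UMI in all 25 HFD members, in 14 of 18 control members and in 2 of 9 CCl4 members. Cd5l was the sole identity gene in 4 control members, in 0 HFD members and in 7 CCl4 members. Clec4f alone had 50 UMIs in 9 control members (539 CPM), 58 UMIs in 18 HFD members (792 CPM) and 7 UMIs in a single CCl4 member (234 CPM). Vsig4 had 58 UMIs in 12 control members, 87 in 24 HFD members and 17 in 2 CCl4 members. Timd4 was seen in 3, 7 and 1 members and Marco in 5, 7 and 0. The barcodes from the CCl4 library are therefore called members below, since for 7 of the 9 the rule rested on Cd5l and C1q.

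**Figure D1:**
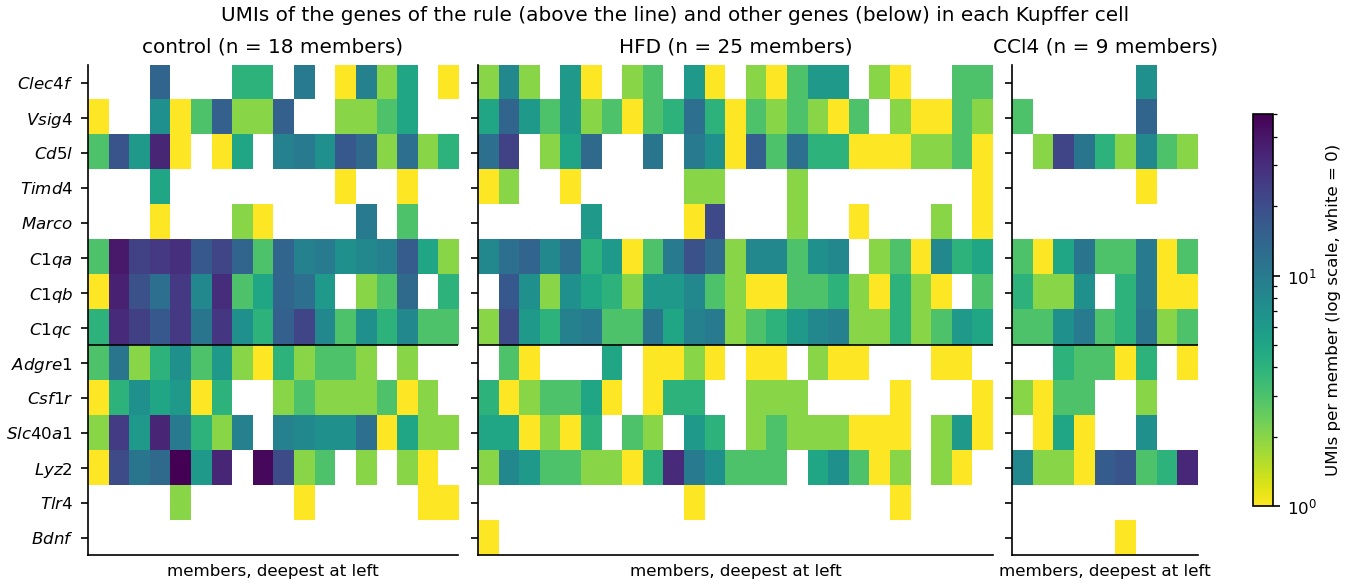
UMIs of each gene (rows) in each of the 52 members (columns, deepest at left) on a log color scale, white for 0 and darkest at 50 or more; genes above the line are those of the rule. Clec4f and Vsig4 fill most HFD columns and are white in 7 of the 9 CCl4 columns, where Cd5l carries the rule.

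At the edge of the rule, 2 control, 1 HFD and 3 CCl4 members had exactly 2 identity UMIs, and 0, 1 and 1 had exactly 4 C1q UMIs. Just outside, 3 control, 6 HFD and 4 CCl4 barcodes had at least 4 C1q UMIs but only 1 identity UMI, and 8, 32 and 11 had at least 2 identity UMIs but 3 or fewer C1q UMIs. A further 11 control and 7 HFD barcodes met every condition except for a Treml4 UMI. These 11 control barcodes had Clec4f at 541 CPM, near the members' 539, and Cd5l at 2195 CPM and Slc40a1 at 2546 CPM, above the members' 1542 and 1553, while of other patrolling monocyte genes Ear2 stood at 205 CPM (53.9 in members), Nr4a1 at 337 CPM (668 in members) and Itgal at 483 CPM, and Ace and Spn were at 0.

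Macrophage genes outside the rule were seen in most members. The 23 Kupffer identity genes outside the rule summed to 6987 CPM in control (6459 to 7546), 5465 in HFD (4942 to 6028) and 4014 in CCl4 members (3328 to 4800), against 784, 813 and 747 CPM in all other barcodes, and the 19 pan-macrophage genes to 14772, 10438 and 11072 CPM. Of the 120 identity list UMIs in CCl4 members, 41 lay in the single member with Clec4f. The other 8 CCl4 members stood at 2899 CPM (2295 to 3613). Adgre1, which encodes the macrophage antigen F4/80, had a UMI in 15 of 18 control members (83.3%), 14 of 25 HFD members (56.0%) and 6 of 9 CCl4 members (66.7%). In T cells, which should lack it, the shares were 0.366%, 0.248% and 0.104% at median depths of 2478, 2287 and 2078 UMIs. When each cell was thinned to 1500 UMIs, the members' Adgre1 shares were 56.3%, 37.7% and 52.5%, so no order between libraries is read from them. Slc40a1 had a UMI in 17 of 18 control members, 21 of 25 HFD members and 4 of 9 CCl4 members, against 3.29%, 6.29% and 11.3% of T cells. The CCl4 share of 44.4% (interval 13.7 to 78.8%) was the lowest of the members' shares, also after thinning (80.8%, 67.0% and 31.3%), while the T cell share was highest in that library.

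The genes that most set the control members apart from all other control barcodes, ranked by the ratio of their CPM among genes with at least 200 CPM, were led by Ccl7, at 345 CPM and 155 times the other barcodes. Its 32 UMIs lay in 3 members, 21 of them in 1. Ccl2, the gene of the chemokine that draws monocytes (733 CPM, 56.2 times), had 57 of its 68 UMIs in 1 other member. Sdc3, which encodes the heparan sulfate proteoglycan syndecan-3, stood on every member: it had 143 UMIs in 18 of 18 control members, 1 to 34 UMIs each, at 1542 CPM and 127 times the other barcodes. Lgmn, the lysosomal protease legumain, was likewise in all 18 (2426 CPM, 44.2 times). Others in this list were Adgre1 (97.6 times), the phosphatidylserine-sensing receptor kinase gene Axl (65.0 times), Siglece, an inhibitory sialic acid receptor (53.6 times), Slc40a1 (50.7 times), Ptgs1, the constitutive cyclooxygenase (44.8 times), the adhesion molecule gene Vcam1 (44.5 times) and Cfp, the complement factor properdin (43.1 times). Lpl, the gene of lipoprotein lipase (70.4 times), stood at 334, 355 and 702 CPM in control, HFD and CCl4 members. Aif1, which encodes the macrophage protein IBA1 (47.5 times), stood at 302, 451 and 201 CPM. The rest of the 15 were Il1a (59.6 times) and Cd300c2 (33.6 times).

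Levels in other cells of the same libraries placed these genes. In the control library Slc40a1 stood at 1553 CPM in Kupffer cells. It stood at 130 CPM in the 33 barcodes that had at least 4 C1q UMIs but no identity gene, at 239 CPM in 42 patrolling monocytes, at 21.9 CPM in 352 classical monocytes and at 25.2 CPM in 4856 hepatocytes. Kupffer cells were thus above the C1q barcodes in Slc40a1 by more than the intervals, and the same held in the HFD library (765 against 75.4 CPM). The CCl4 members stood at 468 CPM against 66.2 CPM, but 7 of their 14 Slc40a1 UMIs lay in the single member with Clec4f, and without it the level was 257 CPM. Sdc3 was also highest in Kupffer cells, at 1542 CPM in control Kupffer cells, 430 in C1q barcodes without identity genes, 239 in patrolling monocytes and 18.9 in classical monocytes. Cdh5, the gene of VE-cadherin, which Kupffer cells share with endothelium, stood at 237 CPM in control Kupffer cells and 39.1 CPM in the C1q barcodes, below the 559 CPM of 144 endothelial cells. Ly6c2, the classical monocyte gene, was at 53.9 CPM in control Kupffer cells and at 0 in the members of both other libraries. Its 1360 CPM in classical monocytes follows from their choice, which required at least 2 Ly6c2 UMIs. Lyz2, the lysozyme of myeloid cells, did not set Kupffer cells apart, at 2394 CPM against 3322 in C1q barcodes, 3717 in patrolling and 4361 in classical monocytes.

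**Figure D2:**
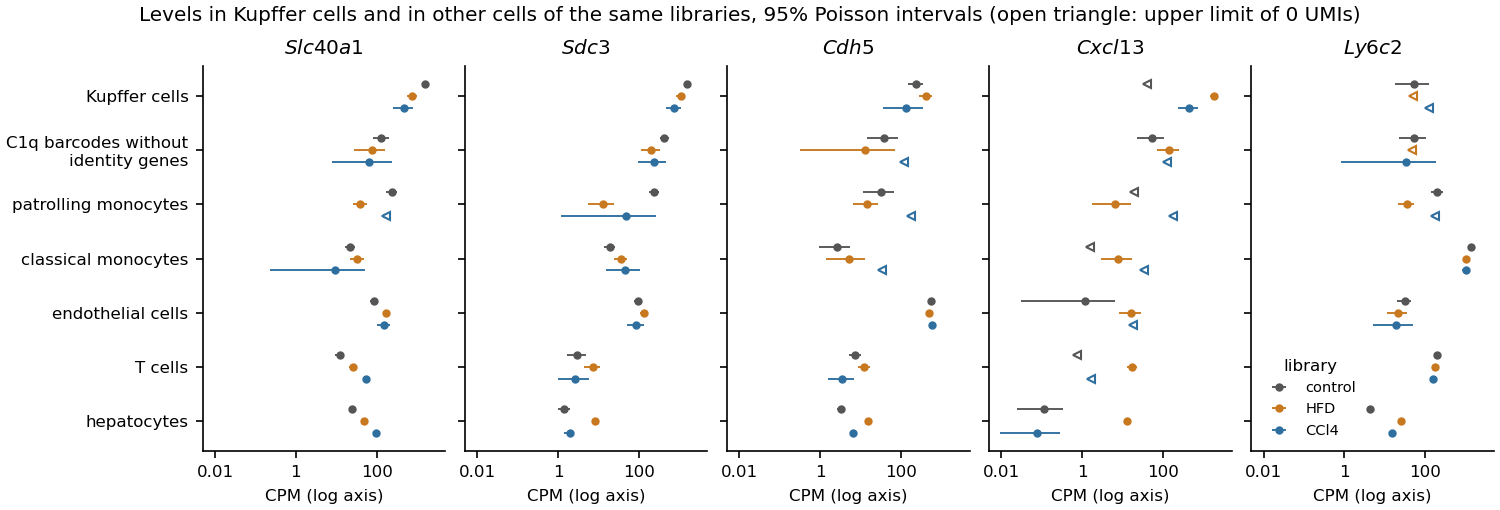
CPM of 5 genes (log axis) in the members (Kupffer cells by the rule) and 6 other sets of barcodes of the same libraries, with 95% Poisson intervals. An open triangle is the upper limit of a gene with 0 UMIs. Slc40a1 and Sdc3 are highest in the members in each library (with CCl4, 7 of 14 Slc40a1 UMIs lie in 1 member). Cdh5 is also high in endothelial cells, and Cxcl13 stands out in the HFD Kupffer cells (1790 CPM). Ly6c2 is highest in classical monocytes, which were chosen by their Ly6c2 UMIs.

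The control members were not alike. Of the 18, 9 had a Clec4f UMI and 9 had none. Cd74, the invariant chain that guides MHC class II molecules, had 4, 2, 1, 18, 0, 5, 16, 1 and 9 UMIs in the members with Clec4f, and 2, 144, 65, 111, 19, 108, 42, 28 and 28 in those without. In UMIs, all but 1 of the members without Clec4f lay above every member with it. Relative to depth the sets overlapped, since the 19 UMIs were of 7094 in that member and the 16 were of 1750. Summed, Cd74 was at 1809 CPM (1367 to 2350) with Clec4f and 8852 CPM without. The MHC class II genes H2-Aa (872 against 4952 CPM), H2-Ab1 (485 against 2395) and H2-Eb1 (711 against 3657) were split in the same direction. The gene of the chemokine CCL4 (Ccl4, 1066 against 4240 CPM) and Il1b, the gene of interleukin 1β (323 against 1667 CPM), were also lower in the members with Clec4f. Some resident genes had the opposite order. Cdh5 stood at 549 CPM with Clec4f and 80.9 CPM without, Sdc3 at 2973 and 825, Lgmn at 3910 and 1683, and Slc40a1 at 2488 and 1084. Others did not: Id3 stood at 1002 CPM with Clec4f and 1570 without, Hpgd at 323 and 485, and Adgre1 at 517 and 631. Of the 17 Cdh5 UMIs with Clec4f, 5 lay in a member with 10 UMIs of the endothelial gene Kdr. Hepatocyte genes summed to 26721 CPM with Clec4f and 55102 without, with up to 1510 UMIs in a member without it. The monocyte gene Ccr2 had 7 UMIs in 1 member with Clec4f and 3 UMIs in 2 members without. The members with Clec4f were the shallower, with a median of 2339 UMIs against 7094. The part of depth in this split was not tested.

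In the HFD library 18 members had Clec4f (median 2545 UMIs) and 7 did not (median 2524 UMIs), and the MHC class II gap was smaller than in the control. Cd74 stood at 1894 CPM with Clec4f and 3061 CPM without, and H2-Aa at 1093 and 1858. Lgmn (2131 against 437 CPM), Sdc3 (1312 against 383), Slc40a1 (929 against 273) and Cdh5 (510 against 109) were again higher with Clec4f. Of the 28 Cdh5 UMIs with Clec4f, however, 3, 7 and 4 lay in 3 members that also held UMIs of the endothelial genes Kdr, Clec4g and Ptprb. The part of endothelial RNA in the Cdh5 values was not tested. Il1b was at 1093 CPM (834 to 1407) with Clec4f and 929 CPM (541 to 1488) without, so the intervals overlapped, which they did not in the control. Ccl4 was lower with Clec4f in HFD members too, at 765 CPM (551 to 1034) against 2678 (1981 to 3541), but 45 of the 49 UMIs without Clec4f lay in 1 member. No test was made between these sets, which were drawn after the values had been seen.

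**Figure D3:**
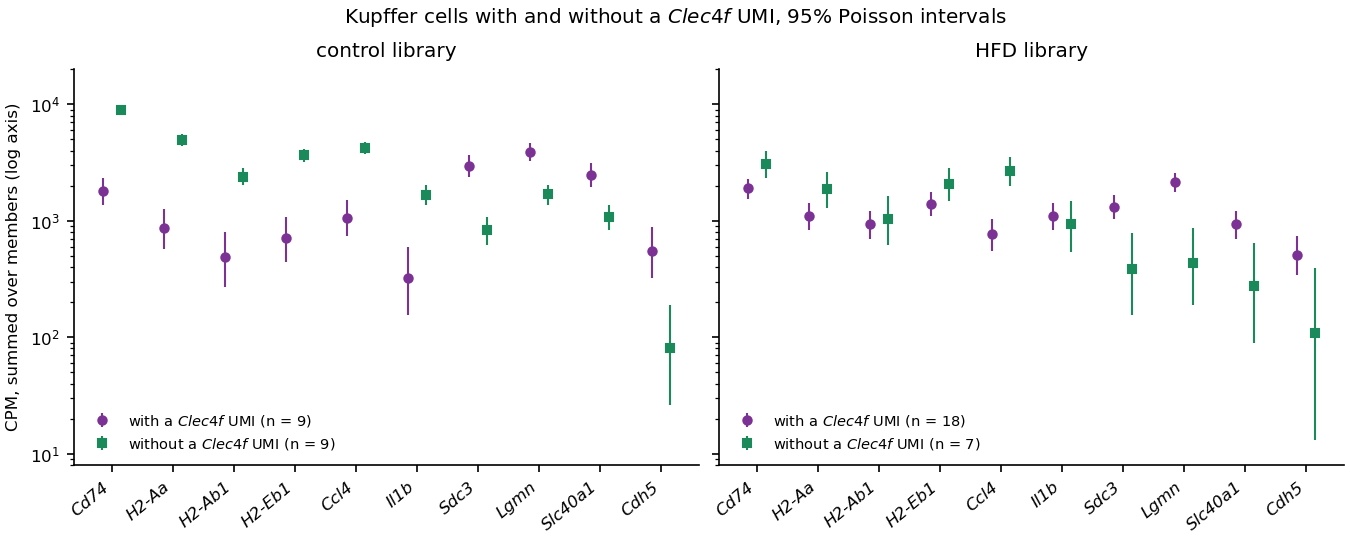
CPM (log axis, 95% Poisson intervals) of MHC class II, cytokine and resident genes in members with (circles) and without (squares) a Clec4f UMI, control at left and HFD at right. In the control, Cd74 is at 1809 CPM with Clec4f and 8852 CPM without, while Sdc3, Lgmn, Slc40a1 and Cdh5 have the opposite order. With HFD the MHC class II gap is smaller than in the control.

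HFD members were compared with control members gene by gene, to ask how Kupffer cells differed after the diet. UMIs were summed over members, and a gene was called when the ratio of its CPM, with 50 CPM added to each side, was past 2-fold, among genes with at least 200 CPM and 20 UMIs in the higher library. Of 777 genes compared, 107 were higher with HFD (13.8%) and 110 lower (14.2%), with a median log2 ratio of -0.14. Among the 189 of them that stood at least 3 times above all other barcodes, 14 were higher and 45 lower, with a median of -0.57. The call is one of size, not of a test, and both comparisons below use the same 18 control members.

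Cxcl13 had the highest ratio. It encodes the chemokine that attracts B cells and is made by stromal cells and some tissue macrophages. The 25 HFD members held 131 UMIs (1790 CPM, interval 1496 to 2124), with 0 at the lowest, 1 at the median and 52 at the highest, and 17 members had at least 1 UMI. The 18 control members, which were deeper, held 0. The HFD level was 55.3 times the level that 3 counts in the control would give (lower limit of the ratio 44.4). Without the member that held 52, the level was 1119 CPM. The 4 deepest HFD members, with 3765 to 7475 UMIs, had 0. The part of depth in these counts was not tested. The 13 Cxcl13 UMIs of the CCl4 library lay in 1 member. Among the HFD members, 14 of the 18 with Clec4f had Cxcl13 (2222 CPM) and 3 of the 7 without (492 CPM). Of the 7 HFD barcodes left out for a Treml4 UMI, 6 had Cxcl13 as well (1496 CPM). The 11 such control barcodes held 1 Cxcl13 UMI, in 1 barcode (14.6 CPM).

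Other cells of the HFD library also held some Cxcl13, at far lower levels. It stood at 138 CPM in 28 C1q barcodes without identity genes, 17.2 CPM in T cells, 16.3 CPM in endothelial cells and 7.73 CPM in classical monocytes, and 238 of 7937 hepatocytes had a UMI. In hepatocytes of the control and CCl4 libraries it stood at 0.115 and 0.0771 CPM. Over all barcodes other than members, Cxcl13 stood at 16.6 CPM in the HFD library and 0.303 CPM in the control. The part of free RNA of the suspension in the 1790 CPM of the members was not tested; the members stood 108 times above the 16.6 CPM of all other HFD barcodes.

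Several other genes called higher with HFD rested on few members. Ehd3 (34 UMIs in 4 members against 2 in the control), Ptprb (28 in 3), Aqp1 (27 in 3) and Dnase1l3 (35 in 6) are genes of sinusoidal endothelium. In 3 HFD members endothelial Stab2, Clec4g, Ptprb and Kdr had at least 2 UMIs together, up to 47 in 1 of them, and these 3 held 17, 9 and 6 of the Ehd3 UMIs. Of the endothelial list, 4 of the 5 genes compared were higher, against 13.8% of all genes. The list summed to 2787 CPM with HFD, 744 in the control and 368 with CCl4. Without the members that carried markers of other cells, Ehd3 and Dcn, a fibroblast gene with 20 UMIs in 2 members, were at 0. Atp1b3, a subunit of the sodium pump, was spread more widely, with 59 UMIs in 13 HFD members and 16 UMIs in 10 control members (ratio 4.67, interval 2.65 to 8.70). Cxcl12, the chemokine gene of stromal and endothelial cells, had 30 UMIs in 8 HFD members and 6 in 3 control members (6.34, 2.59 to 18.6), although 15 of the 30 lay in 1 member, without which the level was 220 CPM in place of 410. Fabp5, a fatty acid binding protein gene, was the single lipid-associated macrophage gene called of 5 compared, where 13.8% of all genes were higher. It stood at 751 CPM against 183 (ratio 4.10, 2.34 to 7.53), with UMIs in 19 HFD and 7 control members. Trem2, the receptor that marks lipid-associated macrophages, had 8 control, 5 HFD and 3 CCl4 UMIs, and Gpnmb and Spp1 were at 0 in HFD and CCl4 members, too few for a direction.

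Among genes at least 3 times the level of all other barcodes, monocyte-attracting chemokine genes had the lowest ratios with HFD when 50 CPM was added to each side. Ccl7 had 1 UMI against 32 (ratio 0.0396, interval 0.000973 to 0.237) and Ccl2 had 7 against 68 (0.130, 0.0505 to 0.284). Each control total rested mostly on 1 member, a different one for each gene. Without its highest member Ccl2 stood at 128 CPM in the control and 42.8 CPM with HFD, and was not past 2-fold with 50 CPM added. Ccl3 had 14 UMIs in 6 members against 72 in 9 (0.246, 0.128 to 0.441) and Ccl4 had 91 in 10 members against 295 in 14 (0.391, 0.306 to 0.496), although 45 of the 91 lay in 1 member, without which the level was 657 CPM. Among members with a Clec4f UMI, Ccl4 stood at 1066 CPM in the control (734 to 1497) and 765 CPM with HFD (551 to 1034), not past 2-fold. Ccl3 stood at 388 and 146 CPM there, with its 12 control UMIs in 1 member. The cytokine list, Cxcl13 included, summed to 5816 and 7214 CPM in these members. Further genes called lower were Siglece (5 against 34 UMIs, 0.186), Cd300c2, a receptor of the CD300 family (3 against 27, 0.141), Tent5a (5 against 50, 0.127), Tmem123 (2 against 23, 0.110) and Sowahc (5 against 32). Of 10 cytokine and chemokine genes compared, 1 was higher and 4 lower, against 13.8% and 14.2% of all genes, with a median log2 ratio of -0.30 against -0.14. Il1b was not among them, at 1052 CPM with HFD and 1218 CPM in the control (ratio 0.863, 0.638 to 1.16).

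Some MHC class II genes were called lower with HFD when all members were summed. Cd74 stood at 6502 CPM in the control (0 to 144 UMIs per member, median 17) and at 2186 CPM with HFD (0 to 23 UMIs, median 4), a ratio of 0.336 (0.281 to 0.401). H2-Aa (0.358, 0.281 to 0.451) and H2-DMa (0.188, 0.0477 to 0.539) were called lower too. With Cd74 they were 3 of the 6 list genes compared, with 0 higher, where 14.2% of all genes were lower. The list median was -1.15 against -0.14 over all genes. The count depended on which members were summed. Among members with a Clec4f UMI, Cd74 stood at 1809 CPM in the control and 1894 CPM with HFD, and 0 of 5 MHC class II genes compared were called in either direction, with a median of 0.31 against 0.34 over the 359 genes compared in that set. Of those 359 genes, 104 were called higher and 47 lower. Among members with a Clec4f or Vsig4 UMI, 2 of 5 were lower, against 10.1% of 646 genes, with a median of -0.76 against 0.11 over those genes.

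**Figure D4:**
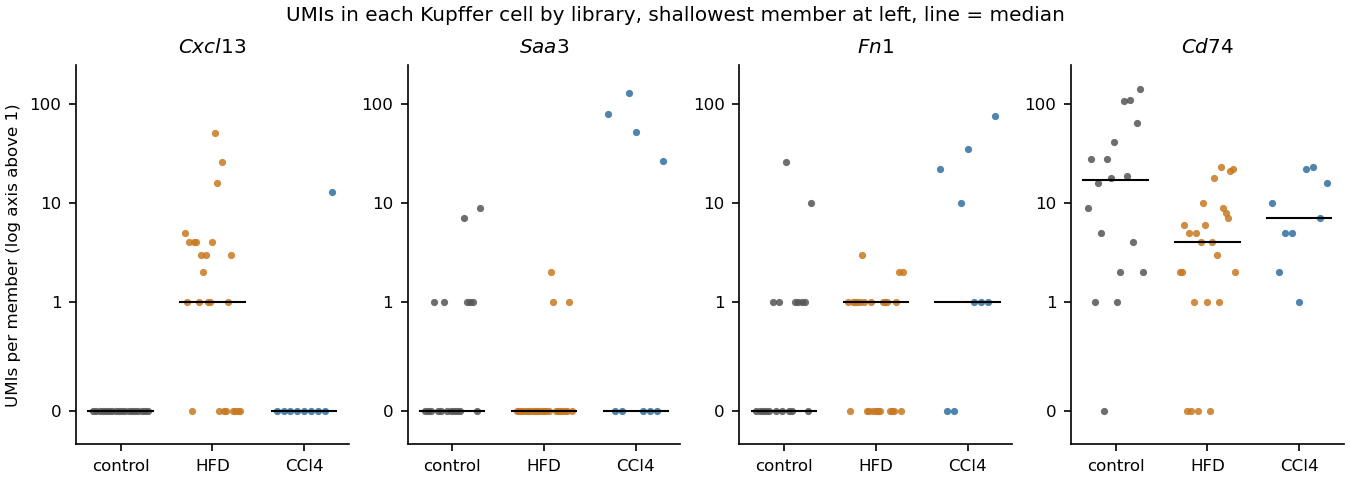
UMIs of 4 genes in each of the 52 members by library (log axis above 1, shallowest member at left within a library, line at the median). Cxcl13 is in 17 of 25 HFD members and 0 of 18 control members, Saa3 and Fn1 are high in 4 of 9 CCl4 members, and Cd74 spans 0 to 144 UMIs in the control.

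CCl4 members were compared with control members in the same way. Of 566 genes compared, 42 were higher with CCl4 (7.42%) and 140 lower (24.7%), and the median log2 ratio over all genes was -0.46, so a single gene near that value did not stand apart. Among the 176 genes at least 3 times above all other barcodes, 8 were higher and 64 lower, with a median of -0.70. Saa3, the serum amyloid A gene that macrophages themselves express, had the highest ratio with 50 CPM added to each side. It had 27, 53, 131 and 80 UMIs in 4 of the 9 members and 0 in the other 5, 9734 CPM in all against 226 CPM in the control (ratio 43.0, 27.6 to 70.5), and 5904 CPM without the member that held 131. All other CCl4 barcodes stood at 13.7 CPM. Fn1, the gene of fibronectin, had 77, 35, 10 and 22 UMIs in those same 4 members and 3 UMIs in the other 5 (4917 against 453 CPM, ratio 10.9, 7.66 to 15.7). Without its highest member Fn1 stood at 2946 CPM with CCl4 and 182 CPM in the control. Timp2, an inhibitor of matrix metalloproteinases, had 20 UMIs in 6 members against 3 in the control (20.7, 6.13 to 109), and 439 CPM in place of 669 without its highest member. Atp1b3 was higher with CCl4 as with HFD (24 UMIs in 6 members, ratio 4.65, 2.37 to 9.37), but 17 of the 24 lay in 1 member, without which it stood at 257 CPM against 173 CPM in the control and was not past 2-fold.

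The 4 members with Saa3 were of 2 kinds. One was the deepest CCl4 member, with 6132 UMIs and 3 Vsig4 UMIs. It alone held the 48 UMIs of Col3a1, the 30 of Col1a1 and the 28 of Col1a2, the fibrillar collagen genes of fibroblasts, which were at 0 in the control members. The other 3 had 2810, 2794 and 2564 UMIs, no Clec4f or Vsig4, and 2 to 4 Cd5l UMIs each. They held 66 of the 86 Lyz2 UMIs and 9 of the 10 UMIs of Itgam, the CD11b gene, with 0 UMIs of Ly6c2 and Ccr2. A short list of genes known from macrophages of the peritoneal cavity, chosen after these values were seen, was then read in every member. Prg4 had 4, 5 and 9 UMIs in the 3 and 1 in the other 6, although it was also found in 1341 barcodes of the library. Alox15 had 3 of the 5 UMIs of the whole CCl4 library there, and Serpinb2 4 of its 7. Gata6, which defines the large macrophages of that cavity, had 1 UMI in the 3 and 3 in the deepest member, among 584 barcodes of the library. In the control members these genes had 1 UMI of Prg4, 0 of Alox15, 0 of Serpinb2 and 1 of Gata6. Slc40a1 was at 0 in the 3 members, against 644 CPM in the other 6 (352 to 1081), and Lgmn was at 367 against 1335 CPM. Which macrophage population these barcodes came from was not tested. Without them, Saa3 was left in 1 member (27 UMIs, 1243 CPM), 30 genes were called higher and 156 lower of 516 compared.

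Several cytokine and chemokine genes were lower in the CCl4 members. Il1b had 3 UMIs in 2 members against 113 UMIs in 13 control members (ratio 0.0824, interval 0.0167 to 0.247). Il1a had 0 against 22 in 8 members, a control level 2.36 times that of 3 counts in the CCl4 members (upper limit of the ratio 0.566). Ccl3 had 1 UMI against 72 (0.0431, 0.00108 to 0.248) and Ccl4 had 19 against 295 (636 against 3181 CPM, interval of the ratio 0.119 to 0.318), and 406 CPM without its highest member. Ccl6, a chemokine gene of myeloid cells, had the opposite direction, with 22 UMIs in 7 members against 29 in 12 (2.35, 1.29 to 4.24), although 13 of the 29 lay in 1 control member, without which the control level was 189 CPM in place of 313. Of 9 cytokine and chemokine genes compared, 1 was higher and 5 lower, against 7.42% and 24.7% of all genes, with a median log2 ratio of -2.09 against -0.46. The fifth was Ccl2 (4 against 68 UMIs, or 134 against 733 CPM), whose control level was 128 CPM without its highest member. Cxcl2 (1405 against 1574 CPM) was not called. Rel, which encodes the NF-κB subunit c-Rel, had 0 UMIs against 42 in 11 control members (upper limit of the ratio 0.285). Its control level was 4.51 times that of 3 counts in the CCl4 members. Siglece had 0 UMIs against 34 (3.65 times the level of 3 counts, limit 0.356) and the adaptor gene Grb2 0 against 30 (3.22 times, limit 0.406). The proton pump accessory gene Atp6ap1 had 0 against 21 (2.26 times, limit 0.596), and Lnpep had 1 UMI against 37. In the control, 103 of the 113 Il1b UMIs lay in members without Clec4f, and the part of that makeup in these ratios was not tested. Without the 3 members that held cavity genes, 6 of 7 cytokine genes compared were lower and 0 higher. Over all genes compared in that set, 156 were lower and 30 higher, as given above.

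Among resident and antigen-presenting genes, the share called lower with CCl4 was near that of all genes (24.7%) for some lists and above it for others. Slc40a1 stood at 468 CPM against 1553 (ratio 0.302, 0.161 to 0.523), with 7 of its 14 UMIs in 1 member and 257 CPM without it, and Id3, a transcription factor that Kupffer cells need, at 569 against 1380 (0.412, 0.233 to 0.686). They were the 2 calls among the 8 identity genes outside the rule that could be compared, with 0 higher and a median of -0.96. Among members with a Clec4f or Vsig4 UMI (2 with CCl4), 0 of 5 were called, with a median of -0.35. Of the 325 genes compared in that set, 48.9% were lower and 4.00% higher. Without members with markers of other cells, 2 of 5 identity genes were lower, against 27.7% of all genes. With HFD, 0 of 9 were called over all members and the median was -0.51. Lgmn (1070 against 2426 CPM), Ctss (1037 against 2167 CPM), Fcer1g (769 against 1639) and Spi1 (1 against 21 UMIs) were called lower, 4 of 12 pan-macrophage genes, and Ctsc and Ctsa with Lgmn and Ctss were 4 of 16 lysosomal genes. The 2 of 8 identity and 4 of 16 lysosomal genes are about the share over all genes. Of 6 MHC class II genes compared, 4 were lower (Cd74, H2-Ab1, H2-DMa and Ctss, the protease that trims the invariant chain), with Cd74 at 3044 CPM (ratio 0.468, 0.371 to 0.584). Without the 3 members that held cavity genes, 1 of 6 was lower, where 156 of all genes compared in that set were. Without members with markers of other cells 5 of 6 were lower, against 27.7% of all genes. Nr1h3, the liver X receptor gene that sustains Kupffer cell identity, stood at 194, 260 and 201 CPM in control, HFD and CCl4 members, and Csf1r, the receptor for the macrophage growth factor, at 485, 492 and 368 CPM. For both genes the intervals of the 3 libraries overlapped, although 4 of the 6 CCl4 Nr1h3 UMIs lay in 1 member, without which it stood at 75.9 CPM.

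**Figure D5:**
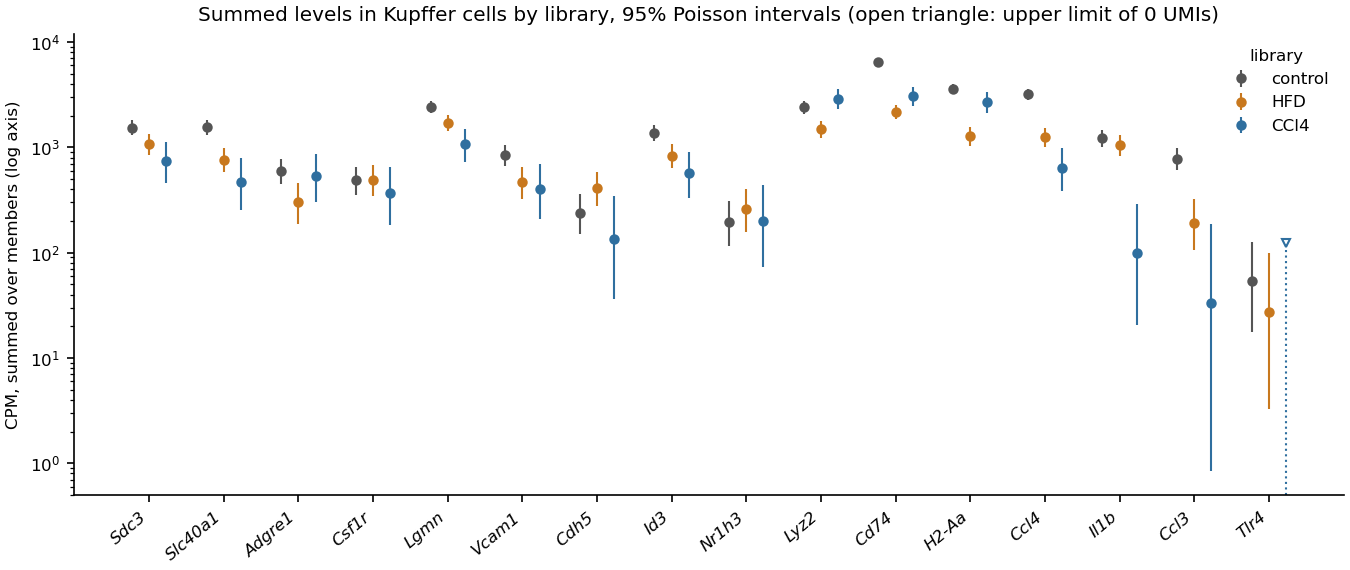
CPM summed over members (log axis) with 95% Poisson intervals for resident, MHC class II, cytokine and receptor genes in the 3 libraries; an open triangle is the upper limit of 0 UMIs. Slc40a1 stands at 1553, 765 and 468 CPM in control, HFD and CCl4, Csf1r and Nr1h3 overlap across libraries, and Il1b is low with CCl4 only.

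Tlr4, the receptor for bacterial lipopolysaccharide and the receptor at the center of the study, was sparse in these cells. It had 5 UMIs in 4 of 18 control members (53.9 CPM, 22.2% of members), 2 UMIs in 2 of 25 HFD members (27.3 CPM) and 0 in 9 CCl4 members, where 3 counts would be 100 CPM. The control level was 23.9 CPM with at least 3 identity and 8 C1q UMIs, and 97.5 CPM as the mean of members' own CPM. In T cells 0.305%, 0.165% and 0% had a Tlr4 UMI, so the control and HFD shares were above that background, whereas no difference between the libraries was detectable at this depth. Classical monocytes had Tlr4 at 10.7 CPM in the control and 15.5 CPM with HFD, and hepatocytes at 0.154 and 0.376 CPM. Its co-receptors Ly96 (7, 4 and 1 UMIs) and Cd14 (248, 137 and 268 CPM) were seen in all 3 libraries. Of 3 genes of the TLR4 complex and its signaling compared with HFD, Tnfaip3, an inhibitor of NF-κB signaling, was lower (205 against 582 CPM, ratio 0.352, 0.184 to 0.633), and of 2 compared with CCl4, Nfkbia, the gene of the NF-κB inhibitor IκBα, was lower (569 against 1488 CPM, 0.382, 0.216 to 0.634). Both are also targets of NF-κB. The list medians were -0.97 with HFD and -1.15 with CCl4, and 14.2% and 24.7% of all genes were lower. Without members with markers of other cells, 0 of 2 list genes compared were lower in each comparison, with medians of -0.64 and -0.72. Over all genes in that set, 13.9% were lower with HFD and 27.7% with CCl4. Among members with a Clec4f or Vsig4 UMI, 1 of 2 was lower with HFD and 2 of 2 with CCl4, against 10.1% and 48.9% of all genes. Unc93b1, which carries nucleic acid-sensing Toll-like receptors to endosomes, was the other Toll-like receptor list gene that could be compared with HFD, at 355 against 766 CPM (0.464, 0.284 to 0.737).

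Bdnf was at or near 0 in the members. It had 0 UMIs in the control, 1 with HFD (13.7 CPM) and 1 with CCl4 (33.5 CPM), all under the level of 3 counts. The HFD UMI lay in the member with 19 Kdr and 18 Ptprb UMIs, and the CCl4 UMI in 1 of the 3 members that held cavity genes. The share of T cells with a Bdnf UMI was 0.122%, 0.993% and 0.311%, and hepatocytes stood at 2.15, 6.11 and 3.97 CPM. Its receptor gene Ntrk2 was at 0 in all members, and Rest, the repressor of neuronal genes, had 7, 3 and 0 UMIs. Of the 10 neurotrophin genes listed, 0 could be compared between libraries.

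Few genes of the other groups were called with HFD, against 13.8% higher and 14.2% lower over all genes. Of 17 lysosomal genes compared, 1 was lower (Ctsa); of 13 pan-macrophage genes, 1 (Mpeg1, a pore-forming protein gene, 451 against 970 CPM); of 5 efferocytosis and 3 scavenger receptor genes, 1 each, the shared member Lrp1 (219 against 550 CPM); of 7 iron-handling, 3 complement and 3 interferon-stimulated genes, 0. List medians with HFD, against -0.14 over all genes and -0.57 over those at least 3 times above other barcodes, were -0.35 for lysosomal, -0.57 for pan-macrophage, -0.82 for efferocytosis, -0.53 for immediate-early and -0.51 for transcription factor genes. Of 16 immediate-early and heat-shock genes, which respond to cell isolation as well as to stimuli, 3 were lower with HFD (Nr4a1, Hspa1b and Hsp90aa1) and 3 of 15 with CCl4 (Nr4a1, Fosb and Atf3), where 24.7% of all genes were lower. Their list summed to 19516 CPM in control, 14537 in HFD and 15555 in CCl4 members. Of 10 macrophage transcription factor genes, Irf8 was lower with HFD (150 against 399 CPM), and Irf8, Id3, Spi1 and Nfe2l2 with CCl4. Of 17 interferon-stimulated genes listed, 3 could be compared each time and 0 were called. S100a6 was the call among 4 monocyte-derived macrophage genes with HFD (68.3 against 323 CPM, with 28 of the 30 control UMIs in 1 member) and Fn1 with CCl4. Of 6 iron-handling genes compared with CCl4, Slc40a1 was lower; of 2 efferocytosis genes, Axl; and of 2 scavenger receptor and 3 lipid-associated macrophage genes, 0. Cell cycle genes gave 1 gene to compare each time, Hmgb2 with HFD (3 against 23 UMIs), and Mki67, 1 of the markers of dividing cells, was at 0 in HFD and CCl4 members.

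The most abundant genes of the lists in control members, beside those already given, were not among those called. Apoe, the gene of apolipoprotein E, led the lipid-associated list at 11472, 15548 and 13715 CPM in control, HFD and CCl4 members. Fth1 and Ftl1, the ferritin chains that store iron, stood at 6566, 8198 and 10370 CPM and at 3925, 3566 and 3345 CPM. Psap (3245, 1940 and 2342 CPM), Ctsb (2987, 2528 and 2107) and Ctsd (1175, 710 and 1137), of lysosomal proteins, were lowest in the HFD or CCl4 members. Of the inflammatory genes, Cxcl2, of a chemokine for neutrophils, stood at 1574, 1175 and 1405 CPM. Dusp1 (2717, 2364 and 3813 CPM) and Fos (2146, 1243 and 1739) led the immediate-early genes and Cebpb (1704, 1435 and 1305) the transcription factors. Lower in level were Ifitm3 (841, 738 and 870 CPM), Bst2 (496, 492 and 234), Ifi204 (248, 205 and 134), the mannose receptor gene Mrc1 (334, 424 and 234), Rac1 (485, 383 and 636), Pcna (108, 82.0 and 167) and Tlr13 (119, 54.7 and 0).

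Hepatocyte transcripts were present in every member and moved with the libraries. Alb took a median of 0.360% of a control member's UMIs (0.113 to 1.08%), 1.67% with HFD (0.575 to 2.37%) and 2.81% with CCl4 (1.94 to 3.16%). Of 15 hepatocyte genes compared, 8 were higher with HFD (Fabp1, Alb, Apoa2, Apoc1, Cyp2e1, Serpina1a, Ahsg and Ttr) and 6 with CCl4 (Alb, Apoa2, Apoc1, Apoc3, Serpina1a and Ttr), against 13.8% and 7.42% of all genes, and Saa1 and Saa2 were lower in both. The list summed to 45630 CPM in control, 89913 in HFD and 89617 in CCl4 members, below the 115082, 149004 and 192286 CPM of all other barcodes. In the control, 1510 of the 4232 UMIs of the list lay in 1 member. Some of the highest and lowest ratios over all genes were of transcripts that hepatocytes make in quantity. Scd1, the fatty acid desaturase, stood at 8553 CPM in HFD members against 766 in the control (ratio 11.2, 8.73 to 14.5), and at 11144 against 1562 CPM in all other barcodes. Acaa1b and Cyp4a10, genes of fatty acid oxidation, were likewise higher, and Saa2, Saa1, Mt2 and Mt1 lower, in the members and in the other barcodes of the HFD library alike (Saa2 164 against 7310 CPM in members, 310 against 15754 CPM in other barcodes; Mt1 246 against 3375, and 167 against 10718). With CCl4, Saa2 (3 UMIs against 678) and Saa1 (2 against 521) were again lower in members. The part of free hepatocyte RNA in these values was not tested. Of 4 hemoglobin genes, 4 were lower in each comparison, and the erythroid and platelet list summed to 8809, 1626 and 100 CPM, but 454 of the 465 control Hbb-bs UMIs lay in 1 member, and Hbb-bt had 85 UMIs in 2 control members, against 3 in 1 HFD member, and Hba-a1 and Hba-a2 were at 0 with CCl4 against 136 and 120 UMIs in 3 control members each. Stellate cell and fibroblast genes summed to 10.8, 642 and 3078 CPM, the last of these led by the collagen UMIs of 1 member. Genes of T and NK cells (474, 710 and 335 CPM), B and plasma cells (86.3, 27.3 and 100 CPM), neutrophils (173, 109 and 0 CPM), dendritic cells (313, 27.3 and 0 CPM) and cholangiocytes (64.7, 0 and 201 CPM) stayed below 1000 CPM in control, HFD and CCl4 members, and patrolling monocyte genes summed to 1175, 492 and 401 CPM, of which Nr4a1 and Gngt2 were called lower with HFD and Nr4a1 with CCl4. Of the control's dendritic cell UMIs, all 11 of Siglech, a gene of plasmacytoid dendritic cells, lay in 1 member, which had 8008 UMIs, 6 Cd5l UMIs and no other identity gene, and all 8 of Ccr9 lay in 1 member.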

How the data were processed

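For each library the authors deposited a matrix of UMI counts, 55357 genes by barcode, made with Cell Ranger 7.2.0 and not normalized. The genome build (mm10 or GRCm39) differs between the sources, so no coordinates are given, and how barcodes were called as cells is not given in the sources used here. Every deposited barcode had at least 1629 UMIs, and library totals were 49613255 (control), 34985786 (HFD) and 34061186 (CCl4) UMIs.

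The members and the 28 gene lists were chosen with earlier results of these data known. UMIs were summed over members per library. Intervals (95%) were exact Poisson for CPM, Clopper-Pearson for shares and conditional on the summed UMIs for ratios. A count of 0 was set against 3 counts. Rule genes, mitochondrial genes and numbered Rpl and Rps genes (not Rplp genes or Rpsa) were left out of the gene comparisons. Genes named were the rule genes, the 15 with the highest ratio of members to other control barcodes, per comparison the 8 highest and 8 lowest among genes at least 3 times the other barcodes and the 5 highest and lowest without that condition, and of each list its 2 most abundant and its called genes. Lists of other cells are given mainly by their sums. Other genes, and the split by Clec4f and the cavity genes Prg4, Alox15 and Serpinb2, were chosen after values were seen.

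Other cells of the libraries were picked by UMI rules: patrolling monocytes (at least 2 UMIs of Treml4, Ear2 and Ace), classical monocytes (at least 2 of Ly6c2 and 2 of Ccr2, Chil3 and F13a1), endothelial cells (at least 3 of Stab2, Clec4g, Kdr and Ptprb), T cells (at least 2 of Cd3d, Cd3e and Cd3g) and hepatocytes (Alb at least 1000 CPM), each without the genes of other classes. No doublet caller was run. Leaving out the deepest members or those with other cells' markers stood in for it. The marker rule did not cover fibroblast or hemoglobin genes. It kept the CCl4 member with the collagen UMIs and the control member with most Hbb-bs UMIs, while the HFD members with Dcn UMIs were left out. The comparison, the intervals and the thinning were tested on simulated data. Another 13 settings were tried as listed at the start and 4 were chosen after seeing the data. Python 3.11.15, numpy 2.4.6, scipy 1.17.1, pandas 2.3.3 and matplotlib 3.10.9 were used.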

Additional observations from a re-analysis of the deposited data

Results flagged for a closer look

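Signal of Kupffer cell genes lay outside the members, in barcodes that met the rule except for a Treml4 UMI: 11 in the control library, 7 in the HFD library and 0 in the CCl4 library. The 11 control barcodes had Cdh5 at 380 CPM and Cd74 at 8575 CPM, and the 7 HFD barcodes Marco at 827 CPM, Cdh5 at 551 CPM and, of patrolling monocyte genes, Nr4a1 at 433 CPM, Itgal at 551 CPM, Spn at 78.8 CPM, Ace at 39.4 CPM and Ear2 at 39.4 CPM, against 246 CPM of Nr4a1, 68.3 CPM of Ear2 and 0 of Spn and Ace in HFD members. Of the HFD barcodes, 2 held 48 Dcn UMIs. Endothelial Kdr had 26 UMIs in 1 control barcode (380 CPM) and 11 UMIs in 2 HFD barcodes (433 CPM).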

How the results depend on the processing

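Of 177 values under alternative settings, 147 stayed within the interval of the main value or within 1.5 times of the main count. Counts moved with the filter and the fold. At 100 CPM and 10 UMIs, 209 genes were higher and 224 lower with HFD, and 102 higher and 354 lower with CCl4; with no filter, 426, 367, 595 and 815; at 3-fold, 46, 35, 25 and 69. Of the rules of membership, those with at least 3 identity and 8 C1q UMIs gave 18 genes higher with CCl4 and a CCl4 share of 0.0313%, and at least 1 identity UMI gave 64 higher. The following were chosen after seeing the data. Members with a Clec4f or Vsig4 UMI gave 65 genes lower with HFD, 13 higher with CCl4 and a CCl4 share of 0.0157%, with 48.9% of genes lower with CCl4 (35.9% with 3 identity and 8 C1q UMIs). Members with a Clec4f UMI gave 47 lower with HFD and shares of 0.0803% (control) and 0.00784% (CCl4, 1 member, so no comparison was made). Allowing Treml4 UMIs gave shares of 0.259% in the control and 0.246% with HFD, and 150 genes higher and 81 lower with HFD. Bdnf, at 1 UMI, went to 0 with HFD without the deepest 10% of members or without those with markers of other cells, and to 0 with CCl4 with 3 identity and 8 C1q UMIs, with Clec4f or Vsig4, or without members that held cavity genes.

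The limits are the 9 CCl4 members, the depth gap between control and other members, and the lack of replicates. Of the genes called, 5 of 107 higher and 13 of 110 lower with HFD, and 6 of 42 and 15 of 140 with CCl4, had over 50% of their UMIs in 1 member. No paired analysis was possible because each condition has 1 library.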
